A study of Mus musculus with 3 samples.

Results

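Glycolysis turns glucose into pyruvate through a fixed order of enzymes, from hexokinase to pyruvate kinase, and lactate dehydrogenase turns pyruvate into lactate. Glucose enters the cell through transporters of the Slc2a family, and lactate and pyruvate cross the membrane through monocarboxylate transporters of the Slc16a family. Rapidly growing embryonic cells are known for a high use of glucose, and most steps have several paralogous genes with their own tissue patterns, such as the liver, muscle and brain forms. The gene set described here holds 34 genes of 17633 genes with a read in any library, chosen by name as glycolytic enzymes, their regulators, the step from pyruvate to the mitochondrion, glucose and lactate transporters, and fructose bisphosphatases. All 34 had reads in at least 1 library. Pyruvate kinase M was listed under its older symbol *Pkm2*, and its alternative splice forms could not be separated in a table of reads per gene.

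Embryos of the ICR strain, an outbred mouse stock, gave RNA of endoderm, mesoderm and epiblast at E7.5, with no genotype or treatment that differed between the groups. The germ layers were separated by enzyme treatment and glass needles from the embryonic region, and the epiblast sample held the neuroectoderm and the primitive streak. Each germ layer has 1 library made of RNA from a pool of many embryos, so the differences below have no replicate check, and a test of read counts compares these libraries and not the germ layers as conditions. The tables hold, per gene, the uniquely mapped reads and the RPKM, which is the reads per kilobase of gene length, scaled to the counted reads of the library. The libraries held 41.7 M, 40.8 M and 42.7 M counted reads in endoderm, mesoderm and epiblast, and an unlisted gene was counted as 0 reads, compatible with as many as 3. Intervals on folds below are 95% intervals from exact binomial limits and, like this floor, cover counting error only. In pooled tissue, fewer cells that hold an RNA and less RNA per cell cannot be told apart. Of the germ layer markers, 9 of 9 endoderm markers were highest in the endoderm library, 9 of 9 mesoderm markers in the mesoderm library and 6 of 8 epiblast markers in the epiblast library, where *Cdh1* and *Fgf5* were the exceptions.

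A gene was called differentially expressed between 2 libraries with RPKM>5 in at least 1 of them, Fold Change>2 and FDR<0.001 from Audic and Claverie's exact test of the reads, adjusted by Benjamini-Hochberg over all genes with a read in either library. The criteria picked out 7 of the 34 genes for endoderm against mesoderm, 14 for endoderm against epiblast and 3 for mesoderm against epiblast. Of the genes of the set with RPKM>5 in at least 1 of the 2 libraries these were 7 of 26, 14 of 27 and 3 of 25, where the same criteria called 23.0%, 24.6% and 10.3% of all genes at that level.

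The sequences just before an annotated start of 4 of the genes are shown, chosen for their different patterns: both monocarboxylate transporter genes, which were ordered oppositely across the libraries, *Slc2a2*, whose reads were nearly all in endoderm, and *Pgk1*, the core enzyme with the largest ratio between epiblast and endoderm. They were taken from the RefSeq promoter windows of build GRCm38.p6, which held 52 windows for 33 of the 34 genes and none for *Slc2a3*. Each is written 5′ to 3′ from the far end to the start, and that of *Slc16a3* stops before the first exon of several transcripts, while the longest span of the gene begins upstream, so that the stretch lies in an intron of another transcript. Capitals mark ACGTG, the core of the hypoxia response element, CACGTG, an E-box of the Myc and ChREBP families, GGGCGG, the GC box, and TATAAA, the TATA box, all searched on both strands, where CACGTG always holds ACGTG as well.
Slc16a1, chr3:104638414-104638663, plus strand: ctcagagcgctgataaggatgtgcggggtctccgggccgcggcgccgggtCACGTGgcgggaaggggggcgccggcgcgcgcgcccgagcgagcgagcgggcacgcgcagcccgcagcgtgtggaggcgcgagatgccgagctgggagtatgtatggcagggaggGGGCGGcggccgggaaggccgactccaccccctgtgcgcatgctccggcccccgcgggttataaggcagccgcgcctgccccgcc
Slc16a3, chr11:120948817-120949052, plus strand: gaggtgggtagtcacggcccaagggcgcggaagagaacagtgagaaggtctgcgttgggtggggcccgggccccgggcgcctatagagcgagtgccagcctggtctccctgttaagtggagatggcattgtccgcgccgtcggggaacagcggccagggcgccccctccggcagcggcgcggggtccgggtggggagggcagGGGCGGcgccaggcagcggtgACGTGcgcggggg
Slc2a2, chr3:28697653-28697902, plus strand: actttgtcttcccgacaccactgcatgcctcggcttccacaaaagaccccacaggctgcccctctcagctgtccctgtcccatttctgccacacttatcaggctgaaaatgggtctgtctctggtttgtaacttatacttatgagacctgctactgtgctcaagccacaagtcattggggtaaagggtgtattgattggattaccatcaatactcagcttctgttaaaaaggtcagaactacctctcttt
Pgk1, chrX:106186850-106187099, plus strand: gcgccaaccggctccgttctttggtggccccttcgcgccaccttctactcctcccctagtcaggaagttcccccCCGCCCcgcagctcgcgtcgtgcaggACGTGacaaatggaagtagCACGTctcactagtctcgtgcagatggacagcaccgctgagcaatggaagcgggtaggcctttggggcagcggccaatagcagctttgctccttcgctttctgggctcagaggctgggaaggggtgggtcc

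The stretch of *Slc16a1* held CACGTG beginning 200 bases before the start and GGGCGG 85 bases before it. In *Slc16a3*, ACGTG lay 27 bases and GGGCGG 48 bases before the start. These positions count from the RefSeq start, which lies beyond the end of the printed stretch. The *Pgk1* stretch held ACGTG 150 bases before the start, the same motif on the other strand 131 bases before it and a GC box 176 bases before it, while the *Slc2a2* stretch held none of the 4 motifs. Over all windows of the gene set, each of 300 bases with 250 before and 50 after the start, ACGTG was found in 23 of 52 (44.2%), in windows of 19 genes, against 19.6% of all 32851 windows and 26.6% of the 8534 windows of genes with RPKM>5. CACGTG was found in 13.5% of the windows, against 7.15% of all and 10.4% of those of genes with RPKM>5, and GGGCGG in 50.0%, against 35.7% and 66.1%. TATAAA was found in 5.77%, against 13.6% and 6.52%. Several windows belong to the same gene and overlap, and a match is a run of letters, not a site shown to be bound.

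The core enzymes of the pathway were highest in epiblast, intermediate in mesoderm and lowest in endoderm. This order held for 9 of 10 core enzymes (*Gpi1*, *Pfkl*, *Aldoa*, *Tpi1*, *Gapdh*, *Pgk1*, *Pgam1*, *Eno1*, *Pkm2* and *Ldha*), the exception being *Tpi1*, whose lowest library was mesoderm, while the order of *Gpi1* between endoderm and mesoderm turned with the median of ratios scaling. Their summed RPKM was 6743 (endoderm), 10492 (mesoderm) and 13276 (epiblast), and their reads made up 1.22%, 1.91% and 2.43% of all counted reads. The median log2 ratio of these 10 genes was -0.64 for endoderm over mesoderm, -0.93 for endoderm over epiblast and -0.37 for mesoderm over epiblast. Over all genes with RPKM>5 in at least 1 of the 2 libraries, the medians were -0.10, -0.08 and 0.02. Of the 10, the criteria called 4 for endoderm against epiblast, all higher in epiblast (*Pfkl*, *Aldoa*, *Pgk1* and *Pkm2*), and none in the other pairs, where each ratio stayed below 2-fold.

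**Figure D1:**
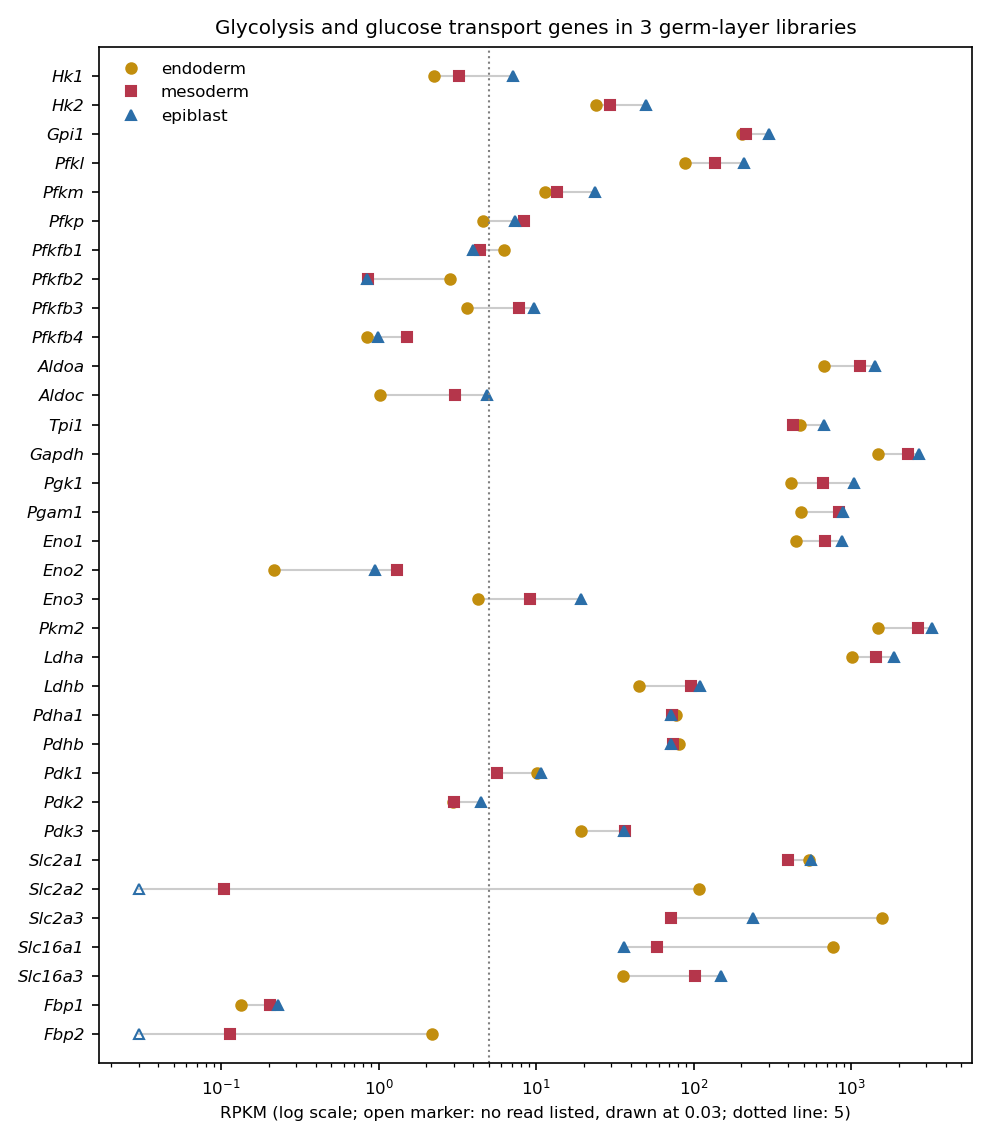
RPKM (log scale) of the 34 glycolysis and glucose transport genes in the endoderm, mesoderm and epiblast libraries, 1 point per library, ordered by their place in the pathway, with an open marker at 0.03 for a gene without reads and a dotted line at RPKM 5. The epiblast triangles lie to the right for most enzymes, from *Hk1* at 7.11 to *Pkm2* at 3276, while the endoderm points lie to the right for *Slc2a2*, *Slc2a3* and *Slc16a1*.

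At the entry of the pathway, hexokinase traps glucose by adding a phosphate. *Hk2*, the growth-associated form, had an RPKM of 24.1 (endoderm), 29.6 (mesoderm) and 49.6 (epiblast), and the broadly expressed *Hk1* had an RPKM of 2.24 (endoderm), 3.25 (mesoderm) and 7.11 (epiblast). *Hk2* was 2.06-fold (95% interval 1.995 to 2.13) higher in epiblast than in endoderm, which met the criteria but fell to log2 ratios of -0.95 and -0.93, below 2-fold, when the libraries were scaled to the same RPKM total or by the median of ratios. *Hk1* was 3.17-fold (95% interval 2.83 to 3.56) higher in epiblast than in endoderm, and its ratio to mesoderm was 2.19-fold (95% interval 1.98 to 2.42), a call that ended with a pseudocount of 1 (log2 ratio -0.93). Both calls of *Hk1* ended with an RPKM minimum of 10. Among the RPKM of both, *Hk2* took 91.5% (endoderm), 90.1% (mesoderm) and 87.5% (epiblast). *Gpi1*, the isomerase of the next step, had an RPKM of 202 (endoderm), 216 (mesoderm) and 299 (epiblast), met the criteria in no pair, and the sign of its small difference between endoderm and mesoderm (log2 ratio -0.10) turned with the median of ratios scaling.

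Phosphofructokinase carries out the committed step of glycolysis. The liver form *Pfkl* was the main one, with an RPKM of 88.2 (endoderm), 138 (mesoderm) and 209.6 (epiblast), and it took 84.7% (endoderm), 86.2% (mesoderm) and 87.1% (epiblast) of the summed RPKM of the 3 genes. It was 2.38-fold (95% interval 2.33 to 2.42) higher in epiblast than in endoderm, and mesoderm exceeded endoderm by 1.56-fold (95% interval 1.53 to 1.59). The muscle form *Pfkm* had an RPKM of 11.3 (endoderm), 13.6 (mesoderm) and 23.7 (epiblast) and was 2.09-fold (95% interval 1.96 to 2.23) higher in epiblast than in endoderm, a call that the same RPKM total and the median of ratios ended with log2 ratios of -0.97 and -0.95. The platelet form *Pfkp* had an RPKM of 4.57 (endoderm), 8.43 (mesoderm) and 7.31 (epiblast) and met the criteria in no pair.

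The Pfkfb genes encode bifunctional enzymes that make and remove a strong activator of phosphofructokinase. *Pfkfb3*, the form with the highest kinase activity, had an RPKM of 3.64 (endoderm), 7.82 (mesoderm) and 9.71 (epiblast), and it was 2.15-fold (95% interval 1.97 to 2.34) higher in mesoderm and 2.66-fold (95% interval 2.45 to 2.89) higher in epiblast than in endoderm. The call against mesoderm ended with the median of ratios (log2 ratio -0.99) and with a pseudocount of 1 (log2 ratio -0.93). Both calls of *Pfkfb3* ended with an RPKM minimum of 10. *Pfkfb1*, the liver and muscle form, went the other way with an RPKM of 6.28 (endoderm), 4.41 (mesoderm) and 3.96 (epiblast). *Pfkfb2*, the heart form, was 3.33-fold (95% interval 2.90 to 3.85) higher in endoderm than in mesoderm, but its RPKM of 2.86 (endoderm), 0.858 (mesoderm) and 0.849 (epiblast) stayed below the RPKM minimum. The corresponding values of *Pfkfb4* were 0.839, 1.52 and 0.992. Of the summed RPKM of the 4 genes, *Pfkfb3* took 26.8% (endoderm), 53.6% (mesoderm) and 62.6% (epiblast), and *Pfkfb1* took 46.1% (endoderm), 30.2% (mesoderm) and 25.5% (epiblast), so that the leading form was *Pfkfb1* in the endoderm library and *Pfkfb3* in the others. With the longest annotated transcript as the gene length, *Pfkfb2* led in endoderm at 34.5%, before *Pfkfb1* at 30.0% and *Pfkfb3* at 29.4%, so the leading form in endoderm depended on the length.

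Aldolase splits the phosphorylated hexose. *Aldoa*, the muscle and embryonic form, had an RPKM of 676 (endoderm), 1131 (mesoderm) and 1423 (epiblast), and was 2.11-fold (95% interval 2.08 to 2.13) higher in epiblast than in endoderm, a call that the same RPKM total and the median of ratios ended at log2 ratios of -0.98 and -0.96. The brain form *Aldoc* was much lower, at 1.02, 3.05 and 4.88 in the same order, and its 4.81-fold ratio between epiblast and endoderm was not called because it stayed under RPKM 5. *Tpi1*, triosephosphate isomerase, had an RPKM of 470.3 (endoderm), 426 (mesoderm) and 675 (epiblast), with the least difference between endoderm and epiblast among the core enzymes, 1.44-fold (95% interval 1.42 to 1.46).

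The enzymes of the later steps of glycolysis were among the most abundant of the set. *Gapdh*, which oxidizes the triose phosphate and is often used as a reference gene, had an RPKM of 1472 (endoderm), 2291 (mesoderm) and 2715 (epiblast) and was 1.56-fold (95% interval 1.54 to 1.57) higher in mesoderm and 1.84-fold (95% interval 1.83 to 1.86) higher in epiblast than in endoderm. *Pgk1*, which yields ATP, had an RPKM of 414 (endoderm), 661 (mesoderm) and 1049.6 (epiblast), and was 2.54-fold (95% interval 2.50 to 2.57) higher in epiblast than in endoderm. The mutase *Pgam1* had an RPKM of 483 (endoderm), 837 (mesoderm) and 891 (epiblast), and its values in mesoderm and epiblast differed by 1.06-fold (95% interval 1.05 to 1.08).

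*Eno1*, the main enolase, had an RPKM of 444 (endoderm), 681 (mesoderm) and 878 (epiblast), and its 1.98-fold (95% interval 1.95 to 2.003) ratio between epiblast and endoderm fell just short of the fold criterion, which scaling to the same upper quartile passed (log2 ratio -1.09). The tables also hold *Gm5506*, the former symbol of its retrogene *Eno1b*, singled out here after its values were seen, and how the counting divided reads between them is not given in the sources used here. The retrogene had 13994, 20918 and 27895 reads in endoderm, mesoderm and epiblast, which was 29.3%, 29.1% and 28.9% of the reads of both. Summed over both genes the ratio between epiblast and endoderm was 1.97-fold. The muscle enolase *Eno3* was, beside *Slc2a3*, the one gene of the set called in all 3 pairs, with an RPKM of 4.27 (endoderm), 9.17 (mesoderm) and 19.1 (epiblast). It was 2.15-fold (95% interval 1.85 to 2.49) higher in mesoderm than in endoderm and 2.09-fold (95% interval 1.89 to 2.31) higher in epiblast than in mesoderm, and neither call held under all alternatives. The log2 ratio of the former was -0.99 with the median of ratios and -0.95 with a pseudocount of 1, and that of the latter was -0.99 with a pseudocount of 1. The neuronal enolase *Eno2* had 24, 142 and 107 reads in endoderm, mesoderm and epiblast, with an RPKM of 0.217 (endoderm), 1.31 (mesoderm) and 0.943 (epiblast). It was 6.03-fold (95% interval 3.90 to 9.73) higher in mesoderm and 4.35-fold (95% interval 2.77 to 7.08) higher in epiblast than in endoderm, but stayed below the RPKM minimum.

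*Pkm2*, the last enzyme of the pathway and the most abundant gene of the set in mesoderm and epiblast, had an RPKM of 1478 (endoderm), 2676 (mesoderm) and 3276 (epiblast), and was 2.22-fold (95% interval 2.20 to 2.23) higher in epiblast than in endoderm. *Ldha*, the lactate-forming subunit of lactate dehydrogenase, had an RPKM of 1016 (endoderm), 1434 (mesoderm) and 1859 (epiblast) and was 1.83-fold (95% interval 1.81 to 1.85) higher in epiblast than in endoderm, which did not meet the fold criterion. *Ldhb*, the heart subunit, had an RPKM of 45.1 (endoderm), 96.7 (mesoderm) and 110.4 (epiblast) and was 2.15-fold (95% interval 2.05 to 2.25) higher in mesoderm and 2.45-fold (95% interval 2.34 to 2.57) higher in epiblast than in endoderm, and the call against mesoderm ended with the median of ratios (log2 ratio -0.99). *Ldha* took 95.8% (endoderm), 93.7% (mesoderm) and 94.4% (epiblast) of the summed RPKM of both subunits, and *Ldhb* took 4.25% (endoderm), 6.32% (mesoderm) and 5.60% (epiblast), least in endoderm.

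The measured subunits of pyruvate dehydrogenase, which turns pyruvate into acetyl-CoA in the mitochondrion, were nearly level across the libraries. *Pdha1* and *Pdhb*, the subunits of the first enzyme of the pyruvate dehydrogenase complex, had RPKM of 77.4, 72.6 and 71.7 and of 80.8, 74.1 and 72.00 in endoderm, mesoderm and epiblast. Their largest ratio was 1.12-fold (95% interval 1.08 to 1.17) for *Pdhb* between endoderm and epiblast, and the signs of their differences between mesoderm and epiblast (log2 ratios of 0.02 and 0.04) turned with the scaling. The kinases that switch this complex off had different patterns, although none met the criteria. *Pdk3* had an RPKM of 19.2 (endoderm), 36.6 (mesoderm) and 36.01 (epiblast), and was 1.91-fold (95% interval 1.79 to 2.03) higher in mesoderm than in endoderm. *Pdk1*, a kinase induced in low oxygen, had an RPKM of 10.1 (endoderm), 5.61 (mesoderm) and 10.7 (epiblast), and was lowest in mesoderm, 1.91-fold (95% interval 1.78 to 2.05) below epiblast. The values of *Pdk2* were 2.96, 2.997 and 4.45. Of the summed RPKM of the 3 kinases, *Pdk3* took 59.5% (endoderm), 80.96% (mesoderm) and 70.4% (epiblast), and *Pdk1* took 31.3% (endoderm), 12.4% (mesoderm) and 20.9% (epiblast). Differences of *Pdk1* between endoderm and epiblast, *Pdk2* between endoderm and mesoderm, and *Pdk3* between mesoderm and epiblast were below 1.1-fold and turned in sign with the scaling.

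Among the genes of the set with RPKM>5 in any library, the transporter genes *Slc2a2*, *Slc2a3* and *Slc16a1* had the largest ratios, and all 3 were highest in endoderm. *Slc2a3*, the high-affinity glucose transporter GLUT3 (chromosome 6, 122727809 to 122801640), had 259630 (endoderm), 11569 (mesoderm) and 40390 (epiblast) reads, which gave an RPKM of 1569 (endoderm), 71.3 (mesoderm) and 238 (epiblast). It was 22.01-fold (95% interval 21.6 to 22.4) higher in endoderm than in mesoderm, 6.59-fold (95% interval 6.52 to 6.66) higher in endoderm than in epiblast and 3.34-fold (95% interval 3.27 to 3.41) higher in epiblast than in mesoderm. In the endoderm library it had the highest RPKM of the whole set, above *Pkm2* at 1478 and *Gapdh* at 1472. *Slc2a1*, the widely expressed transporter GLUT1, differed little, with an RPKM of 541 (endoderm), 396 (mesoderm) and 553 (epiblast), and the sign of its 1.02-fold difference between epiblast and endoderm turned with the scaling.

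*Slc2a2*, the low-affinity transporter GLUT2 of liver and pancreatic beta cells (chromosome 3, 28697903 to 28731359), had 11522 (endoderm), 11 (mesoderm) and 0 (epiblast) reads. The endoderm RPKM was 107.6, 1027-fold (95% interval 574 to 2058) above mesoderm. Against the floor of 3 reads it was 3938-fold above epiblast, with a lower 95% limit of 3202-fold. Among the summed RPKM of the 3 glucose transporter genes, *Slc2a3* took 70.8% (endoderm), 15.3% (mesoderm) and 30.1% (epiblast), and *Slc2a1* took 24.4% (endoderm), 84.7% (mesoderm) and 69.9% (epiblast). The leading glucose transporter gene was thus *Slc2a3* in the endoderm library and *Slc2a1* in the mesoderm and epiblast libraries.

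The monocarboxylate transporters were ordered oppositely. *Slc16a1* encodes MCT1, which carries lactate and pyruvate in both directions, and lies on chromosome 3 from 104638668 to 104658462. It had an RPKM of 762 (endoderm), 58.8 (mesoderm) and 35.9 (epiblast), and was 12.9-fold (95% interval 12.7 to 13.2) higher in endoderm than in mesoderm and 21.2-fold (95% interval 20.7 to 21.7) higher than in epiblast. *Slc16a3* encodes MCT4, the lactate exporter of highly glycolytic cells, and lies on chromosome 11 from 120948480 to 120960868. It had an RPKM of 35.7 (endoderm), 101 (mesoderm) and 149 (epiblast), and was 2.84-fold (95% interval 2.74 to 2.95) higher in mesoderm and 4.17-fold (95% interval 4.02 to 4.32) higher in epiblast than in endoderm. *Slc16a1* took 95.5% (endoderm), 36.7% (mesoderm) and 19.5% (epiblast) of their summed RPKM, and with the longest annotated transcript as the gene length its share in mesoderm was 50.2%, so that the leading gene in mesoderm depended on the length.

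**Figure D2:**
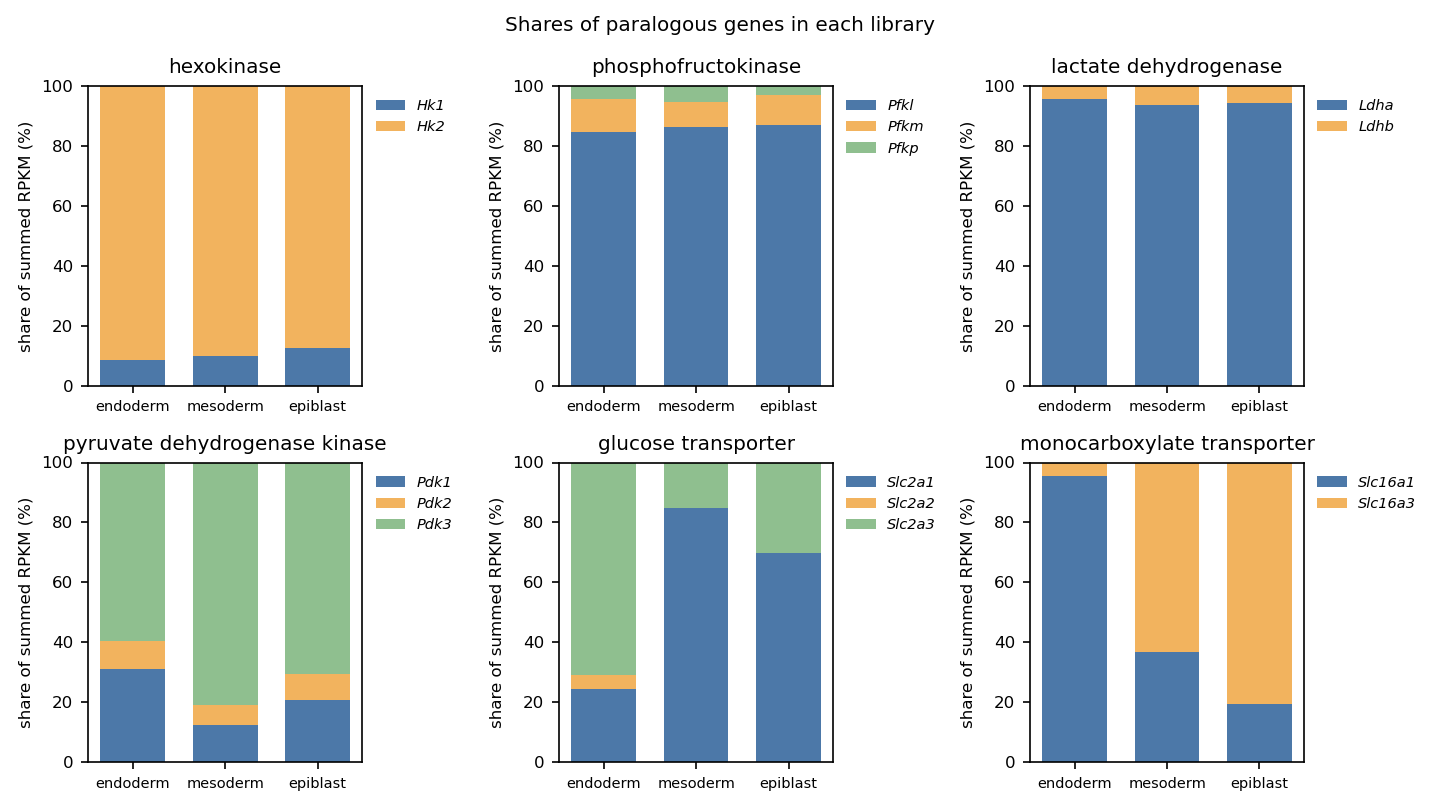
Share (%) of each gene in the summed RPKM of its paralogs in each library, as stacked bars for hexokinases, phosphofructokinases, lactate dehydrogenases, pyruvate dehydrogenase kinases, glucose transporters and monocarboxylate transporters. The leading enzyme gene is the same in the 3 libraries, while *Slc2a3* takes 70.8% of the glucose transporters in endoderm and 15.3% in mesoderm, and *Slc16a1* takes 95.5% of the monocarboxylate transporters in endoderm and 19.5% in epiblast.

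Markers of other tissues were followed beside these transporter values. The summed RPKM of the 9 endoderm markers, all of them listed in every library, was 2480 (endoderm), 51.5 (mesoderm) and 4.98 (epiblast), and *Cer1* made up 47.4 of the sum in mesoderm. Of the 9 trophoblast and extra-embryonic ectoderm markers, *Tpbpa*, *Prl3d1* and *Prl2c2* were listed in no library, and the sum was 28.5, 229.3 and 35.9, of which *Hand1*, also a mesoderm marker, had 222 in mesoderm. *Esx1* and *Plac1* were called higher in endoderm than in both others. *Elf5* (0.108, 0.133 and 0.328) and *Ascl2* (0.268, 1.12 and 1.63) were called in no pair, and were lowest in endoderm and highest in epiblast. *Gcm1*, also not called, had 15, 3 and 0 reads. The 6 decidua markers summed to 25.8, 18.9 and 4.92, mostly *Bmp2* in endoderm and mesoderm and *Des* in epiblast, with *Prl8a2* listed in no library, and the 7 primitive erythroid markers to 3.39, 4.44 and 0.987, with *Hba-x* and *Hbb-y* among those listed in no library. Their part in the transporter differences was not tested.

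The fructose bisphosphatases, which run the reverse step in glucose synthesis, were close to the limit of the data. *Fbp1* had 8, 12 and 14 reads in endoderm, mesoderm and epiblast, which the depth could not separate. *Fbp2*, the muscle form, had 118, 6 and 0 reads, and its RPKM of 2.19 in endoderm was at least 40.3-fold above epiblast, but below the RPKM minimum.

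Taking each pair of libraries over the whole set, 3 genes were higher in endoderm than in mesoderm (*Slc2a2*, *Slc2a3* and *Slc16a1*) and 4 higher in mesoderm (*Pfkfb3*, *Eno3*, *Ldhb* and *Slc16a3*). Of all 17194 genes tested in this pair, 7.44% were called higher in endoderm and 4.41% higher in mesoderm, and the set had 3 and 4 of 34. Between endoderm and epiblast the same 3 genes were higher in endoderm and 11 were higher in epiblast (*Hk1*, *Hk2*, *Pfkl*, *Pfkm*, *Pfkfb3*, *Aldoa*, *Pgk1*, *Eno3*, *Pkm2*, *Ldhb* and *Slc16a3*). The background was 8.02% of 17267 genes higher in endoderm and 4.58% higher in epiblast, against 3 and 11 of 34. Of the 17267 genes, 8843 had RPKM>5 in at least 1 of the 2 libraries and could be called, against 27 of the 34. Among the 8843, 1385 were called higher in endoderm and 791 higher in epiblast. In the other pairs, too, the set had a larger part of genes at that level than the background. Between mesoderm and epiblast, 3 genes were higher in epiblast (*Hk1*, *Eno3* and *Slc2a3*) and 0 in mesoderm, where 2.45% and 2.58% of 17100 genes were called higher in epiblast and in mesoderm.

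Over the 34 genes, the median log2 ratio was -0.57 for endoderm over mesoderm, -0.88 for endoderm over epiblast and -0.32 for mesoderm over epiblast. Relative to the medians of all genes with RPKM>5 these were -0.47, -0.80 and -0.34. The other scalings, which shift all genes of a library alike and so leave these relative values as they are, moved the median of all genes by up to 0.11 on the log2 scale. The epiblast was the highest library for 22 of the 34 genes, the endoderm for 8 and the mesoderm for 4, while the endoderm was the lowest for 23. Among 9135 genes with RPKM>5 in any library, the endoderm was highest for 37.1%, the mesoderm for 30.3% and the epiblast for 32.6%. Under the 3 other scalings the epiblast was highest for 20 to 23 genes and the endoderm for 8 to 10, and the endoderm was lowest for 21 to 23. Because the comparisons share libraries, their counts are not independent of each other. With edgeR's exact test and an assumed biological coefficient of variation of 0.4, the genes still called were *Slc2a2* and *Slc2a3* against mesoderm and *Slc2a2* and *Slc16a1* against epiblast, all higher in endoderm, and none between mesoderm and epiblast.

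**Figure D3:**
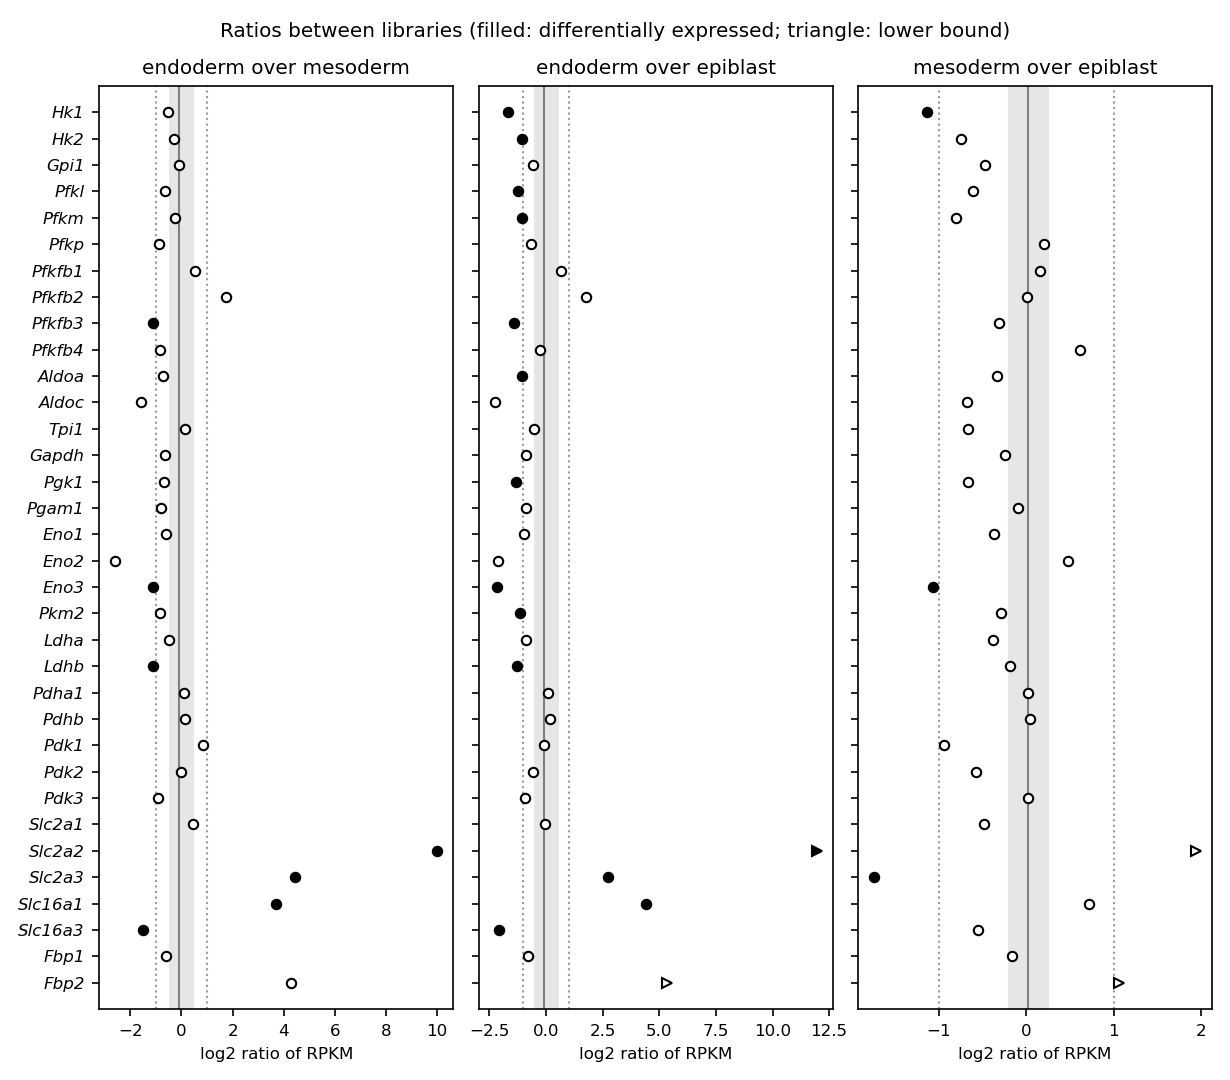
Log2 ratio of RPKM for each of the 34 genes in the 3 pairs of libraries, with filled points for differentially expressed genes, triangles for lower bounds against a library without reads, dotted lines at 2-fold, and the median (line) and middle range between the lower and upper quartile (grey band) of all genes with RPKM>5. Most enzymes lie left of the grey band in endoderm over epiblast, and *Slc2a2*, *Slc2a3* and *Slc16a1* lie far to the right in both panels with endoderm.

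*Pklr*, the liver and red cell pyruvate kinase, which is outside the set, was called higher in endoderm than in both others. Of 19 other glycolysis genes, 10 had RPKM>5 in any library. Of all genes at that level in a pair, 23.0% (endoderm against mesoderm) and 24.6% (endoderm against epiblast) were called. In this list, 4 were higher and 0 lower in endoderm than in mesoderm. Against epiblast, 4 were higher in endoderm and 1 was lower. The latter was listed as *Pgm2* and is named after its values (18.8, 25.1 and 43.5) were seen. *Pklr* had an RPKM of 6.65 (endoderm), 0.141 (mesoderm) and 0.252 (epiblast). The hexokinase family member *Hkdc1* had an RPKM of 12.1 (endoderm), 0.567 (mesoderm) and 0.0536 (epiblast), and the aldose mutarotase *Galm* had 23.9, 4.11 and 6.56. Even so, *Pklr* remained below *Pkm2* in the endoderm library.

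Among 15 other glucose and monocarboxylate transporter genes, including their helper proteins, 1 was called, *Emb*. It encodes embigin, a membrane protein that accompanies monocarboxylate transporters, and had an RPKM of 1561 (endoderm), 174 (mesoderm) and 195 (epiblast). Of 10 other genes of the pyruvate dehydrogenase complex and the mitochondrial pyruvate carrier, 1 was called, the carrier subunit *Mpc2*, listed under its older symbol *Brp44*, with an RPKM of 19.9 (endoderm), 8.43 (mesoderm) and 3.04 (epiblast), which was called in all 3 pairs. None of 17 citric acid cycle genes was called in any pair. The most abundant, the malate dehydrogenase *Mdh2*, had an RPKM of 245 (endoderm), 235 (mesoderm) and 252 (epiblast). In these lists, 3 transporter genes, 5 of the pyruvate genes and all 17 cycle genes had RPKM>5 in any library. Of all genes at that level in a pair, 23.0% (endoderm against mesoderm), 24.6% (endoderm against epiblast) and 10.3% (mesoderm against epiblast) were called.

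Calls in the side branches of glucose metabolism stand beside the 23.0% (endoderm against mesoderm) and 24.6% (endoderm against epiblast) called among all genes with RPKM>5. Of 11 pentose phosphate pathway genes, *Prps1* and *Prps2*, which turn ribose phosphate into the precursor of nucleotides, were higher in both mesoderm and epiblast than in endoderm, with RPKM of 7.44, 40.5 and 63.3 and of 4.82, 18.7 and 25.6, and no other was called. These were 2 of the 9 genes of this list with RPKM>5 in any library, a share near that background. Of 15 glycogen metabolism genes, 3 were higher in endoderm than in mesoderm and 4 than in epiblast, and 0 lower. They were *Gaa* and *Pygl* in both pairs, *Gyg* and *Ugp2* against epiblast and *Pygb*, named after its values were seen, against mesoderm. Of these, the glycogen phosphorylase *Pygl* had 25.5, 7.99 and 7.86, the lysosomal glucosidase *Gaa* 32.4, 6.86 and 4.87, glycogenin *Gyg* 29.3, 16.1 and 9.88 and *Ugp2*, which makes the glucose donor of glycogen, 13.7, 9.11 and 4.998. Of 7 gluconeogenesis genes, *Slc37a4*, a carrier of glucose phosphate, was higher in endoderm than in both others (10.8, 1.83 and 4.30), *Pck2* was higher in epiblast than in endoderm (4.31, 6.37 and 11.4), and *G6pc* was listed in no library. Of 11 genes of fructose, galactose and polyol metabolism, 2 were higher and 2 lower in endoderm than in mesoderm, and 4 were higher and 2 lower than in epiblast, with 1 higher in mesoderm than in epiblast. *Akr1b3*, which reduces glucose to sorbitol, had 12.9, 36.5 and 49.5, and *Sord*, which oxidizes sorbitol to fructose, had 33.2, 6.97 and 5.68. The mannose phosphate mutase *Pmm1* had 10.2, 20.7 and 34.98 and *Gfpt2*, of the hexosamine branch, 21.9, 16.5 and 6.52. The others called, *Pmm2* and *Gfpt1*, were higher in endoderm and are named after their values were seen.

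**Figure D4:**
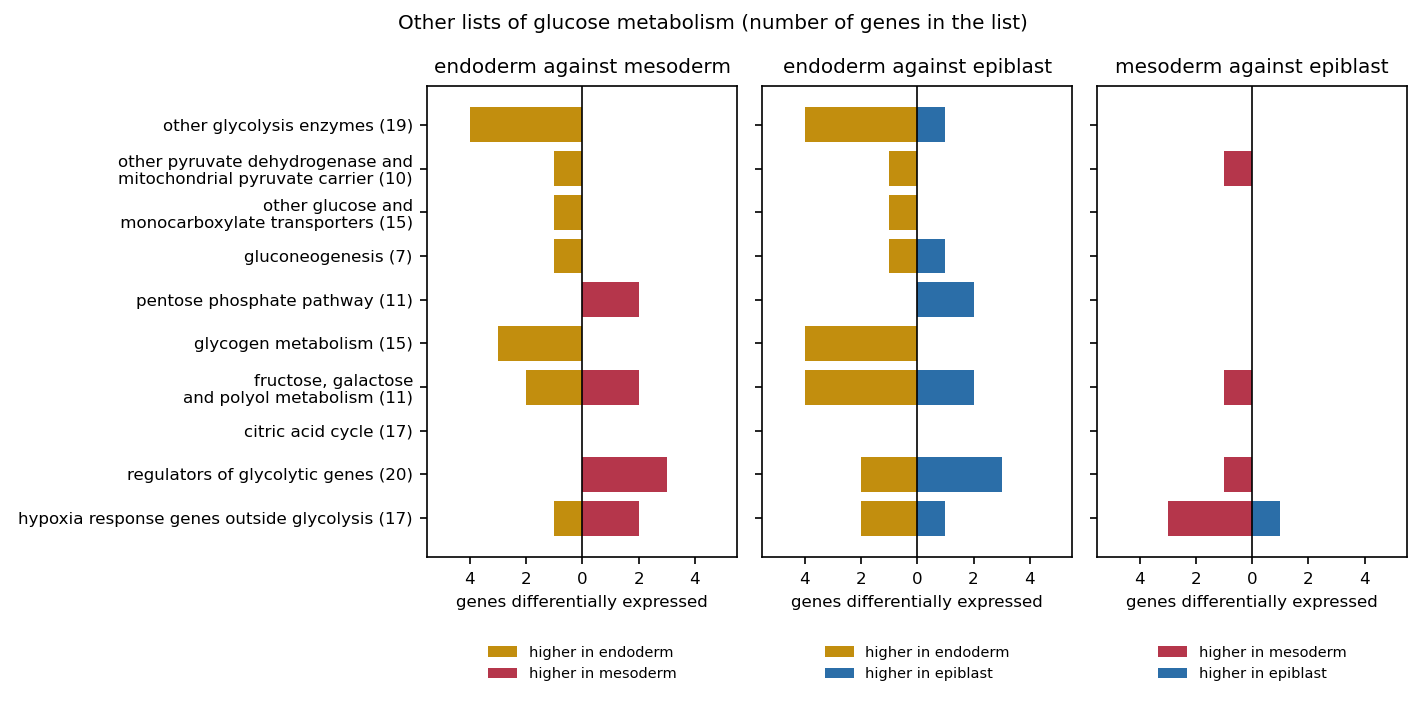
Number of genes differentially expressed in each direction in 10 other lists of glucose metabolism and its regulation, for the 3 pairs of libraries, with the size of each list in parentheses. Calls in glycogen metabolism and other glycolysis enzymes lie almost all on the endoderm side, those of the pentose phosphate pathway lie away from it, and the citric acid cycle has 0 calls.

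Values of single genes carry limits from the counting. Uniquely mapped reads leave out reads that fit several places, and GENCODE M21 holds 150 pseudogene copies of *Gapdh*, 6 of *Ldha*, 5 of *Eno1*, 3 of *Aldoa*, and 2 each of *Pgk1* and *Pkm2*, counted at 90% identity over at least 50% of a transcript. Reads covered 78.3% to 80.4% of *Gapdh* and 80.1% to 89.5% of *Eno1*. Coverage did not follow the copies, with 78.5% to 81.2% for *Pfkp* (0 copies) and 96.3% to 98.9% for *Ldha*. The RPKM of *Gapdh* and *Eno1* may be too low by an unknown part, but a loss of reads to copies was not tested. Exons of *Pfkm*, *Pfkp*, *Pfkfb1*, *Pfkfb2*, *Aldoa*, *Tpi1*, *Gapdh* and *Pdha1* overlap those of other protein-coding genes, and whether the counting used the strand is not given in the sources used here.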

How the data were processed

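The authors sequenced 1 paired-end library per germ layer on an Illumina HiSeq instrument and removed adapters and low-quality reads. The authors deposited per gene the number of uniquely mapped reads, which are counts without normalization. They also deposited the gene length, the coverage as a percent of that length, and the RPKM, which equals the reads divided by the length and the total of counted reads within a relative difference of 2.03e-07. TopHat and GRCm38 are stated for the splicing analysis, and the aligner, annotation and counting program of the gene table are not given in the sources used here.

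The 34 genes were chosen by name, and the 16 other lists, with 189 genes of which 4 were matched through an older symbol, were written for this work. Members and lists were chosen with earlier results of these data known. Every gene of the set is named, and of each other list up to 4 called genes with the largest fold are named, or the gene with the highest RPKM where none was called, except for genes that are not reported here. Samples were grouped by the tissue label, and the 3 pairs of libraries were compared.

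Fold Change is the ratio of deposited RPKM. Counts of each pair were tested two-sided with the exact method of Audic and Claverie, and p-values were adjusted by Benjamini-Hochberg to give the FDR. The quasi-likelihood test of edgeR needs replicates and could not be fitted, so its exact test was tried with the biological coefficient of variation set to 0.2 or 0.4. Other alternatives were RPKM minima of 1 and 10 or none, folds of 1.5 and 4, a pseudocount of 1, 3 scalings of the libraries, no FDR criterion and the longest annotated transcript as gene length. The summing of *Eno1* with its retrogene was chosen after seeing the data. Positions, lengths and pseudogenes came from GENCODE M21 of GRCm38, with pseudogene copies found by BLAST. The tools were R 4.3.3 with edgeR 4.0.16, BLAST 2.17.0, and Python 3.11.15 with SciPy 1.17.1, numpy 2.4.6, matplotlib 3.10.9 and pandas 2.3.3.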

Additional observations from a re-analysis of the deposited data

How the results depend on the processing

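No paired analysis was possible because each germ layer has 1 library, and no replicate could be left out. No direction of a called gene turned under any alternative. The 7 genes called between endoderm and mesoderm became 11 with an RPKM minimum of 1 or none, 17 at 1.5-fold, 3 at 4-fold, 4 with the median of ratios, and 3 and 2 with edgeR's exact test at coefficients of 0.2 and 0.4. The 14 called between endoderm and epiblast became 5 at 4-fold, and 6 and 2 with edgeR at these coefficients. The 3 called between mesoderm and epiblast became 10 at 1.5-fold, 0 at 4-fold, 1 with a pseudocount of 1, and 1 and 0 with edgeR. The remaining alternatives kept each count within 1.5 times. The median log2 ratios over the set, in the order endoderm over mesoderm, endoderm over epiblast and mesoderm over epiblast, were -0.54, -0.79 and -0.27 with the same RPKM total, -0.46, -0.77 and -0.33 with the median of ratios, and -0.60, -0.98 and -0.40 with the same upper quartile. With the longest transcript as length, shares in endoderm, mesoderm and epiblast were 86.8%, 88.7% and 88.5% for *Pfkl*, 67.7%, 12.7% and 25.7% for *Slc2a3*, and 97.4%, 50.2% and 29.6% for *Slc16a1*, that of *Pdk3* in epiblast was 69.2%, and those of *Hk2* and *Ldha* stayed within their counting intervals. Of the 24 called ratios of single genes, 3 were lost with the same RPKM total, 6 with the median of ratios, 5 with an RPKM minimum of 10, and 14 and 20 with edgeR at 0.2 and 0.4. Without replicates, differences near 2-fold cannot be separated from variation between pools of embryos.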

Other observations

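Regulators of glycolytic genes and the hypoxia response outside glycolysis were followed in lists of 20 and 17 genes. Of these, 17 and 13 had RPKM>5 in any library. Of all genes at that level in a pair, 23.0% (endoderm against mesoderm), 24.6% (endoderm against epiblast) and 10.3% (mesoderm against epiblast) were called. The calls of the regulators were not far from these shares. Of the regulators, 0 were higher and 3 lower in endoderm than in mesoderm, 2 higher and 3 lower in endoderm than in epiblast, and 1 higher and 0 lower in mesoderm than in epiblast. *Mycn*, a growth-promoting Myc factor, had an RPKM of 17.1 (endoderm), 83.9 (mesoderm) and 66.8 (epiblast), while *Myc* had an RPKM of 23.1 (endoderm), 33.4 (mesoderm) and 8.81 (epiblast). *Lin28b*, an RNA-binding regulator of let-7 microRNAs, had 5.81, 19.9 and 26.6, and *Egln3*, a prolyl hydroxylase that marks HIF for breakdown, had 4.35, 14.9 and 14.5 in the same order. *Txnip*, a suppressor of glucose uptake named after its values were seen, was called higher in endoderm than in epiblast, with 12.0, 6.49 and 5.39.

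The hypoxia response genes had no common order. Their calls were near the share of all genes in both endoderm pairs, and above it between mesoderm and epiblast. In endoderm 1 was higher and 2 were lower than in mesoderm, and 2 were higher and 1 lower than in epiblast, while 3 were higher and 1 lower in mesoderm than in epiblast. *Vegfa*, a growth factor for endothelial cells, had an RPKM of 31.9 (endoderm), 16.2 (mesoderm) and 5.49 (epiblast), and *P4ha1*, a collagen prolyl hydroxylase, had an RPKM of 54.8 (endoderm), 24.9 (mesoderm) and 11.7 (epiblast). By contrast, *Ddit4*, an inhibitor of mTORC1, was highest in epiblast, with 17.9, 20.2 and 61.7, and *Anxa2*, a membrane-binding protein, in mesoderm, with 6.34, 24.0 and 8.21. *P4ha2*, named after its values were seen, was called higher in mesoderm than in endoderm, with 2.34, 7.45 and 4.37.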
